A study of Mus musculus with 6 samples.

Results

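The nuclear genes of respiratory complexes II to V were examined in cerebellar RNA of WT mice and of KIKO mice, the disease model of the study. Members were all protein-coding genes of the count table whose symbol starts with Sdh, Uqcr, Cox4, Cox5, Cox6, Cox7, Cox8 or Atp5, together with Cyc1 and Cycs. Names were taken from GENCODE M21 on GRCm38. The rule found 54 of the 31053 gene identifiers: 8 for complex II, 9 for complex III, 18 for complex IV, 18 for complex V and Cycs, the mobile electron carrier between complexes III and IV. Atp5o is listed under 2 identifiers, of which ENSMUSG00000116933 had 0 counts in every library. Of the 54 members, 44 had enough counts to be tested, namely 7 of complex II, 9 of complex III, 12 of complex IV, 15 of complex V and Cycs. The rule used no measured value, but the members were chosen with earlier results of these data known.

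KIKO stands for knock-in knock-out, and WT mice were C57BL/6 littermates. The labels give the cerebellum and the genotype, while in the study's text cerebella of mice aged 6 mo were sorted for CD45+/CD11b+ cells, that is microglia and other myeloid cells. The labels mention no sorting, age, sex or treatment. The count table also has columns named for KIKO with butyrate. In the study's text, butyrate was fed to male mice kept to an age of 8 mo. It was also given in culture to microglia from the cerebellum of WT and KIKO mice, and primary microglia were taken from mice a few days old. Which of these experiments the libraries belong to is uncertain. The analysis took 2 WT libraries (WT 1 and WT 2) and 3 KIKO libraries (KIKO 1, KIKO 2 and KIKO 3); the labels do not say whether each is from a separate mouse, and the library labelled WT 3 was not analysed here.

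Complex II (succinate dehydrogenase) passes electrons from succinate through iron-sulfur clusters to ubiquinone. Complex III passes them on to cytochrome c, complex IV (cytochrome c oxidase) hands them to oxygen, and complex V (ATP synthase) uses the resulting proton gradient to make ATP. Among these members, Sdhb and the Rieske protein Uqcrfs1 carry iron-sulfur clusters. Complexes III, IV and V also hold subunits encoded by mitochondrial DNA, so both genomes contribute to them, whereas complex II is encoded by the nucleus alone.

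The c ring of ATP synthase shows how similar some of these genes are. Atp5g1, Atp5g2 and Atp5g3 encode precursors of the same mature c subunit, and their shares of the counts are compared further on. The last 90 coding bases of each, stop codon included, are shown with capitals at the 24 positions where the genes differ. They lie in the final coding exon on the minus strand of GRCm38, at chr11:96073104-96073193 for Atp5g1, chr15:102663014-102663103 for Atp5g2 and chr2:73908593-73908682 for Atp5g3.
Atp5g1: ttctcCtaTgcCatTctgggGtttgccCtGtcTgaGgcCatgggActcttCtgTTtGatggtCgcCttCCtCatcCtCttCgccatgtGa
Atp5g2: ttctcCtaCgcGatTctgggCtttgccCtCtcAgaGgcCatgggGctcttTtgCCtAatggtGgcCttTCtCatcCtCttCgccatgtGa
Atp5g3: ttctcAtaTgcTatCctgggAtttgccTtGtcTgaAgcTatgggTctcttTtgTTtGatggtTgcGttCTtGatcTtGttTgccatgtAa
Over the last 228 coding bases, Atp5g1 and Atp5g2 were identical at 85.1% of positions, Atp5g1 and Atp5g3 at 79.8%, and Atp5g2 and Atp5g3 at 78.5%. The longest run of identical bases between any pair of these 3 ends was 21 bases.

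The libraries held between 1013107 and 1351339 counts, and 3 counts corresponded to between 2.28 and 3.04 normalized CPM (CPM, counts scaled to a common library size, after TMM, which corrects for library composition). KIKO 2 stood apart from the other libraries. Across the 10889 genes tested, which are not independent replicates, its log2 CPM correlated with those of the others with r from 0.672 to 0.747, against 0.884 to 0.931 among the other 4. The biological coefficient of variation was 0.468 with KIKO 2 and 0.238 without it, so results are given both ways. Markers of several cell types were present in each library: the summed level of 10 microglial markers ranged from 5252 to 6647 normalized CPM in WT and from 4617 to 11810 in KIKO, and that of 5 pan-neuronal markers from 1720 to 2510 in WT and from 1321 to 2556 in KIKO. Fewer cells of a type and less RNA per cell cannot be told apart in such bulk samples.

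No member differed between KIKO and WT mice past the limits used by the study, which are an unadjusted p under 0.05 and a log2 fold change over 0.75 in either direction. The same thresholds were passed by 131 of all 10889 genes tested (1.2%), 78 higher (0.716%) and 53 lower (0.487%), in edgeR's quasi-likelihood test. At an adjusted p under 0.05 (Benjamini-Hochberg over all genes tested), 0 of all genes and 0 members were called, and at an unadjusted p under 0.05 still 0 members. DESeq2's Wald test called 0 members as well. Log2 fold changes of the members ran from −0.95 for Sdhaf1 to 0.99 for Atp5f1 with a median of 0.09, beside a median of 0.02 over all genes tested. Of the 44 members, 27 had a positive and 17 a negative sign, and 51.9% of all genes had a positive sign (49% without KIKO 2, where 20 of 42 members had one). The standard error of a member's log2 fold change had a median of 0.44.

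**Figure D1:**
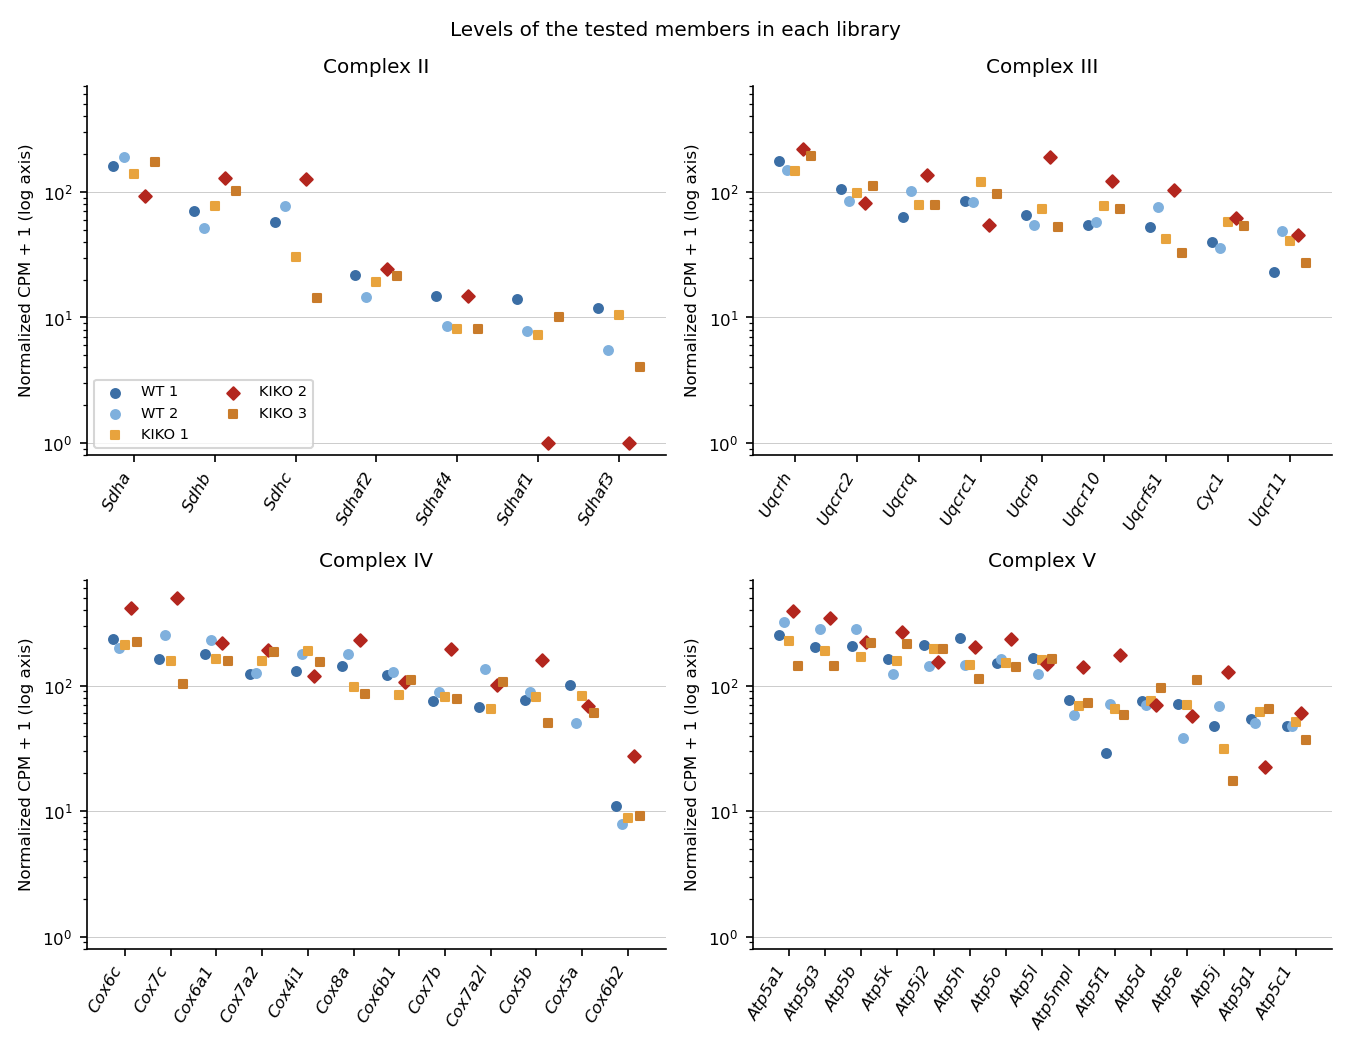
Normalized CPM plus 1 on a log axis for the 44 tested members except Cycs, by complex, with 1 point per library (circles WT, squares KIKO 1 and KIKO 3, red diamonds KIKO 2). KIKO 2 is the highest library in 24 members and the lowest in 8.

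Of the members of complex II, 3 core subunits took the most counts, without correction for gene length. Sdha, the flavoprotein that oxidizes succinate, had 161 and 188 normalized CPM in WT and 139, 92.7 and 172 in KIKO, with overlapping groups. Its log2 fold change was −0.38 (SE 0.39). Sdhb, the iron-sulfur subunit (chr4:140961203-140979193, plus strand), had 69.7 and 50.8 in WT and 76.5, 129 and 102 in KIKO. All KIKO libraries lay above both WT libraries, and Sdhb had the largest log2 fold change of the complex, 0.77 (SE 0.41). Its unadjusted p of 0.0936 was the smallest of any member, and its adjusted p was 1 (edgeR's quasi-likelihood test with Benjamini-Hochberg adjustment).

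Sdhc, a membrane anchor that helps bind the heme of the complex (chr1:171127165-171150603, minus strand), spread widely. It had 56.8 and 75.9 normalized CPM in WT and 29.2, 126 and 13.2 in KIKO, so KIKO 2 was the highest library while KIKO 1 and KIKO 3 lay below both WT libraries. The log2 fold change was −0.23 (SE 0.80) over all libraries. The other anchor, Sdhd, was barely detected, with between 0.76 and 4.64 normalized CPM. Among the assembly factors, Sdhaf1, a factor for the insertion of iron-sulfur clusters into Sdhb, had the smallest log2 fold change of all members, −0.95 (SE 1.22). Its values were 12.95 and 6.83 normalized CPM in WT and 6.31, 0 and 9.13 in KIKO, which overlap, and a total of 3 counts is 2.32 normalized CPM in KIKO 2. Of its 75-base sequences, 68.7% also occur in another listed gene, since its exons overlap E130208F15Rik on the opposite strand by 1733 bases. Over the complex, 2 of 7 tested members had a positive sign and the median log2 fold change was −0.23.

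In complex III, 8 of 9 members had a positive sign and the median log2 fold change was 0.20, with no member past the thresholds. Cyc1, the heme protein that delivers electrons to cytochrome c (chr15:76343523-76346260, plus strand), had 38.9 and 34.9 normalized CPM in WT and 56.8, 61.1 and 52.8 in KIKO. The groups did not overlap, and the KIKO values lay close to each other. The log2 fold change was 0.63 (SE 0.39). Uqcr10, a small subunit (chr11:4701973-4704342, minus strand), had 53.8 and 56.9 in WT and 75.7, 122 and 72.1 in KIKO. Its groups did not overlap either, KIKO 2 was far above the rest, and the log2 fold change was 0.70 (SE 0.41).

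Uqcrfs1, the Rieske iron-sulfur protein (chr13:30540308-30545362, minus strand), was the only member of the complex with a negative sign. It had 51.8 and 74.3 normalized CPM in WT and 41.0, 102 and 31.5 in KIKO, the same order of libraries as in Sdhc. The log2 fold change was −0.11 (SE 0.56). Uqcrb, which takes part in ubiquinone binding, had the largest log2 fold change of the complex, 0.82 (SE 0.58). It had 64.8 and 53.9 in WT and 71.8, 190.1 and 51.8 in KIKO, so the high value was that of KIKO 2 alone. Uqcrh, the hinge protein, had 176 and 149 in WT and 146, 220.2 and 194 in KIKO. Uqcrq, another small subunit near the ubiquinone site, had 61.8 and 101 in WT and 77.3, 135 and 78.1 in KIKO, and its groups overlapped. The core proteins Uqcrc2 and Uqcrc1 had log2 fold changes of 0.04 (SE 0.36) and 0.11 (SE 0.43). Cycs ranged from 10.6 to 47.8 in WT and from 28.4 to 34.8 in KIKO, and its log2 fold change was 0.13 (SE 0.64).

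Complex IV was divided, with 6 tested members of positive and 6 of negative sign and a median log2 fold change of 0.12. Cox7a2, the main Cox7a isoform (chr9:79755361-79759878, minus strand), had 123 and 124 normalized CPM in WT and 155, 192 and 185 in KIKO. Every KIKO library lay above WT, with a log2 fold change of 0.52 (SE 0.35). Cox6b1, which faces the intermembrane space (chr7:30616861-30626151, minus strand), had 122 and 127 in WT and 82.8, 106 and 109.6 in KIKO. Every KIKO library lay below WT, and its log2 fold change was the smallest of the complex, −0.32 (SE 0.35). Cox6b2, its low-abundance isoform, had the largest, 0.76 (SE 0.83), with 9.96 and 6.83 in WT and 7.89, 26.3 and 8.12 in KIKO.

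In complex IV most counts, not corrected for gene length, were those of Cox6c, Cox7c and Cox6a1, small subunits around the catalytic core. Cox6c had 233 and 197 normalized CPM in WT and 211, 413 and 222 in KIKO. Cox7c had 162 and 250.3 in WT and 156, 498 and 103 in KIKO, and Cox6a1 had 176 and 229 in WT and 163, 218 and 155 in KIKO. All 3 had overlapping groups, with log2 fold changes of 0.39 (SE 0.43), 0.29 (SE 0.65) and −0.18 (SE 0.36). Cox4i1, a subunit that joins the core early in assembly, had 129 and 179 in WT and 188, 118 and 154 in KIKO with a log2 fold change of −0.01 (SE 0.38). Cox7a2l, listed as a factor for supercomplexes of complexes III and IV, had 66.7 and 134 in WT and 63.9, 99.7 and 106 in KIKO. Its log2 fold change was −0.17 (SE 0.44).

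In complex V, Atp5a1, the alpha subunit of the catalytic head, took the most counts of any member, on a scale that does not correct for gene length. It had 253 and 318 normalized CPM in WT and 226, 390.2 and 142 in KIKO. The groups overlapped, as those of all 15 tested members of the complex did. The other head subunits, Atp5b (beta, where ATP is made), Atp5c1, Atp5d and Atp5e, had log2 fold changes between −0.27 and 0.55. Atp5b had 206 and 281 in WT and 167, 221 and 218 in KIKO. In the stalk that holds the head to the membrane, Atp5f1 (subunit b, chr3:105942698-105960099, minus strand) had the largest log2 fold change of any member, 0.99 (SE 0.63). It had 27.9 and 70.5 in WT and 63.9, 174 and 57.8 in KIKO, so KIKO 1 and KIKO 3 lay between the WT libraries. The log2 fold change of Atp5f1 was 0.28 without KIKO 2, 0.47 without WT 1 and 1.79 without WT 2, so single libraries decided its size. Atp5h (subunit d) had the smallest of the complex, −0.32 (SE 0.41), with 239 and 144 in WT and 146, 202 and 112 in KIKO.

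All 4 membrane members other than the c ring (Atp5j2, Atp5k, Atp5l and Atp5mpl) had a positive sign, with log2 fold changes from 0.03 to 0.57. Atp5k, subunit e, had 161 and 124 normalized CPM in WT and 155, 266 and 212 in KIKO. Over complex V, 10 of 15 members had a positive sign and the median log2 fold change was 0.05. The inhibitor of ATP synthase, Atpif1, which the rule does not include, was steady, with 124.5 and 123 in WT and 114, 115 and 119 in KIKO and a log2 fold change of −0.10 (SE 0.33). Usmg5, another gene of ATP synthase outside the rule, had 85.7 and 88.7 in WT and 82.0, 213 and 52.8 in KIKO. Its log2 fold change was 0.41 (SE 0.58), and −0.37 (SE 0.32) without KIKO 2.

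Groups that do not overlap were seen in 5 tested members. Sdhb, Cyc1, Uqcr10 and Cox7a2 lay above WT in every KIKO library (4 of 44 members, where 8.2% of all genes did so), and Cox6b1 lay below (1 of 44, where 8.51% of all genes did so). The first count is near the background and the second is under it. The medians of complexes II and III stood on opposite sides of 0, but the single members had standard errors above the medians in both. The difference between complexes was not tested, and only the set of complex II includes assembly factors. The median of complex II turned to 0.04 without KIKO 1, to 0.10 without KIKO 3 and to 0.01 where at least 10 counts were required in every library. With limma on the deposited log2 values it was −0.41.

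**Figure D2:**
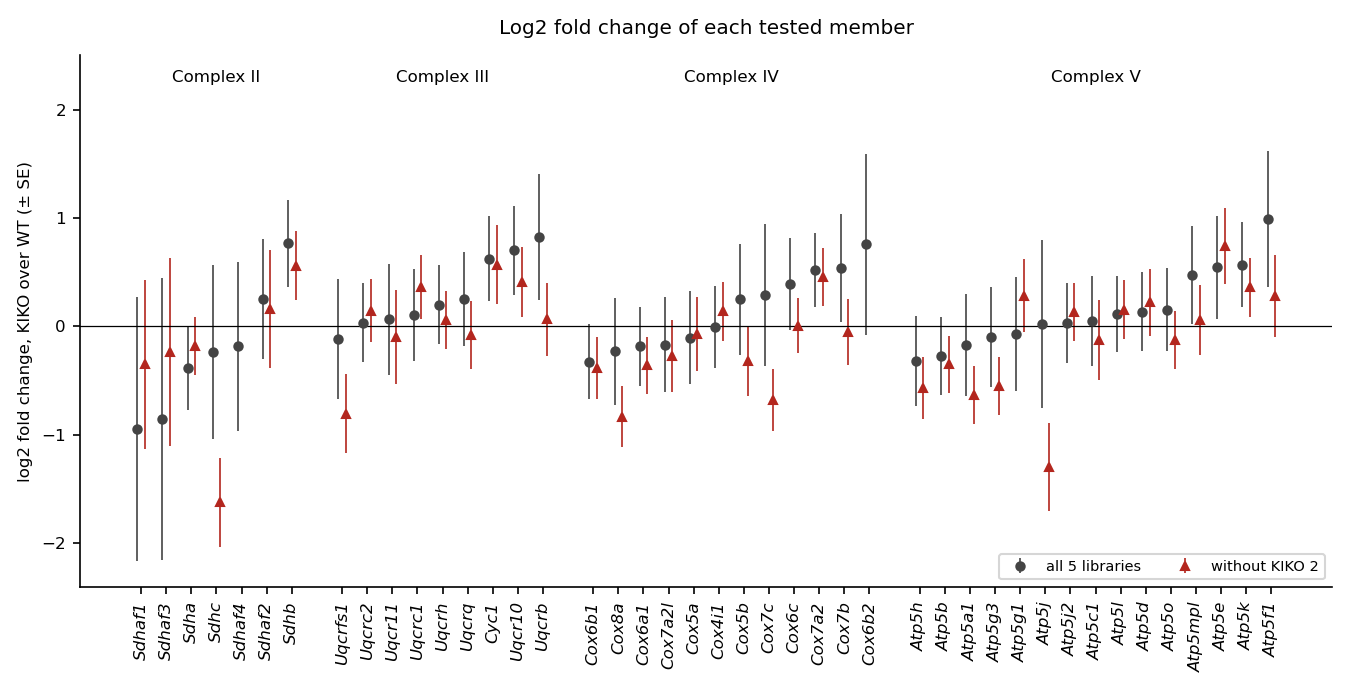
Log2 fold change of KIKO over WT with its standard error for the tested members of complexes II to V, over all 5 libraries (grey circles) and without KIKO 2 (red triangles). Sdhc and Atp5j move furthest down without KIKO 2, to −1.62 and −1.29, and Cyc1, Cox7a2 and Sdhb stay above 0.

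Leaving out KIKO 2 changed the calls. With 2 WT and 2 KIKO libraries, 42 members were tested, 0 were higher and 4 were lower past the thresholds, where 2.94% of all 10373 genes then tested were higher and 3.51% lower. Sdhc had a log2 fold change of −1.62 (SE 0.41, unadjusted p = 0.000417, adjusted p = 0.209), and Atp5j, a stalk subunit (factor F6, chr16:84827866-84835625, minus strand), one of −1.29 (SE 0.41, adjusted p = 0.382). Cox8a (chr19:7215153-7217616, minus strand) had −0.83 (SE 0.28, adjusted p = 0.413) and Uqcrfs1 had −0.80 (SE 0.36, adjusted p = 0.560). All of these are from edgeR's quasi-likelihood test with Benjamini-Hochberg adjustment, at which no member passed. Over all 5 libraries the log2 fold changes of Cox8a and Atp5j were −0.23 (SE 0.49) and 0.02 (SE 0.78).

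The 4 lower members belong to 4 different complexes. The median log2 fold change without KIKO 2 was −0.06 over the members and −0.01 over all genes, −0.21 in complex II, 0.06 in complex III, −0.27 in complex IV and 0.06 in complex V. In complex IV it thus changed sign from 0.12. Groups did not overlap in 6 members above WT (Sdhb, Cyc1, Uqcr10, Uqcrc1, Cox7a2 and Atp5g1), where 19.6% of all genes lay above, and in 10 below WT, where 19.2% of all genes lay below. The 10 were Sdhc, Uqcrfs1, Cox6a1, Cox6b1, Cox7c, Cox8a, Atp5a1, Atp5g3, Atp5j and Atp5o. Sdhb, Cyc1 and Cox7a2 kept log2 fold changes of 0.56 (SE 0.32), 0.57 (SE 0.36) and 0.45 (SE 0.27).

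The summed level of the members was 4486 and 4683 normalized CPM in WT and 4215, 6387 and 4174 in KIKO. KIKO 2 was thus the highest library and the other KIKO libraries were the lowest. As a share of all counts, members took 0.431% and 0.457% in WT and 0.417%, 0.665% and 0.406% in KIKO. Complex III was the exception among the complexes: its sum was 657 and 683 in WT and 724, 1009 and 713 in KIKO, so that all KIKO libraries lay above WT. The sums of complex II were 348 and 348 in WT and 288, 389.5 and 327 in KIKO, those of complex IV 1443 and 1660 in WT and 1372, 2341 and 1325 in KIKO, and those of complex V 1990 and 1981 in WT and 1803, 2613 and 1777 in KIKO. In these 3 complexes KIKO 2 lay above WT, and KIKO 1 and KIKO 3 lay below.

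**Figure D3:**
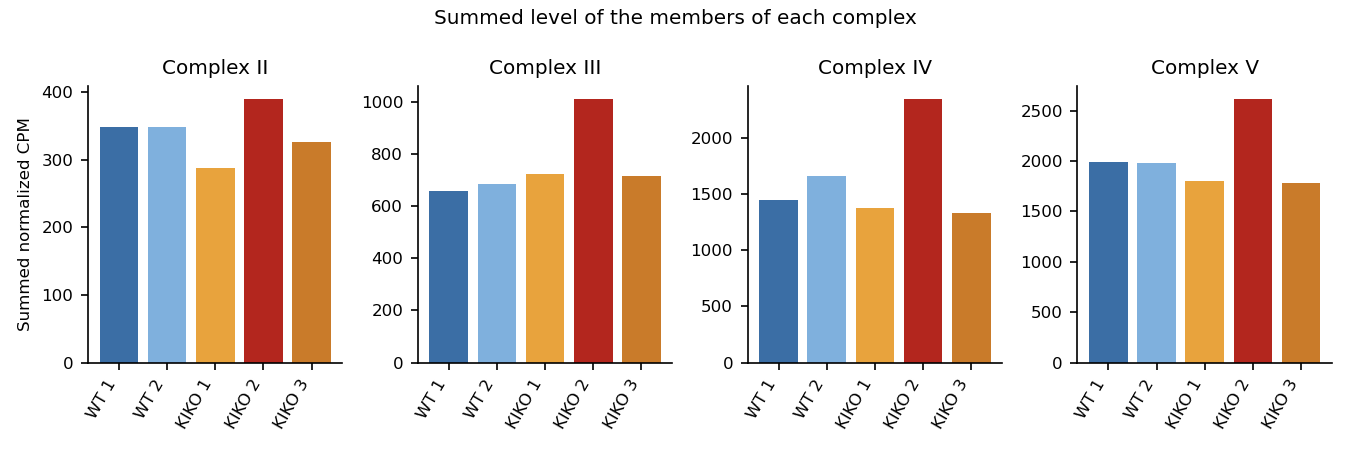
Summed normalized CPM of the members of each complex in each library (1 bar per library, axes from 0, no error bars since each bar is 1 library). KIKO 2 has the highest sum in every complex, and only in complex III do KIKO 1 and KIKO 3 also exceed both WT libraries.

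KIKO 2 was the highest library in 24 of the 44 members, where it was the highest in 33.9% of all genes, and the lowest in 8, where it was the lowest in 37.1% of all genes. The median difference between log2 CPM of KIKO 2 and the mean of the other 4 libraries was 0.42 over members and −0.02 over all genes. By complex it was 0.33 in complex II, 0.43 in complex III, 0.66 in complex IV and 0.40 in complex V. The largest differences were those of Atp5j (1.79), Sdhc (1.74), Atp5f1 (1.70), Uqcrb (1.63) and Cox7c (1.63), and the most negative those of Sdhaf1 (−2.39), Sdhaf3 (−2.07) and Atp5g1 (−1.30). Some catalytic or core proteins lay low or level in KIKO 2, with −0.81 for Sdha, −0.78 for Uqcrc1 and 0.04 for Atp5b, while Atp5a1 lay high at 0.79. Across the 44 members, which share their libraries, the difference had a Spearman correlation of −0.36 with transcript length and of 0.01 with GC content, beside −0.19 and 0.10 over all genes.

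Markers of other cells moved with KIKO 2. Summed normalized CPM of the 5 oligodendrocyte markers was 5079 and 11700 in WT and 4449, 18660 and 5685 in KIKO, and that of the 6 choroid plexus markers was 12850 and 13940 in WT and 9471, 15610 and 7879 in KIKO. The pan-neuronal markers went the other way, with 2510 and 1720 in WT and 2317, 1321 and 2556 in KIKO. Every marker of the microglial, pan-neuronal, oligodendrocyte and choroid plexus lists had counts in at least 1 library. The part of these cells in the members' levels was not tested.

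Members of 4 complexes, 8 in all, had the libraries in one and the same order, from KIKO 3 over KIKO 1, WT 1 and WT 2 to KIKO 2. They were Sdhc, Uqcrfs1, Cox7c, Cox8a, Atp5a1, Atp5g3, Atp5j and Atp5o, 18.2% of the members tested, and 359 of all genes (3.3%) had this order. The next most frequent order was shared by 4 members. This order was noticed after the values were seen and is a description. Atp5j had 46.8 and 67.5 normalized CPM in WT and 29.97, 128 and 16.2 in KIKO, and Cox8a had 143 and 178 in WT and 96.2, 229.5 and 85.2 in KIKO. Atp5o, the stalk protein OSCP, had the narrowest range of the 8, with 150.4 and 163 in WT and 149.8, 233 and 139 in KIKO. Of the 6 choroid plexus markers, 3 (Ttr, Kl and Kcnj13) had the same order and so did the summed level of the 6, whereas Folr1, Enpp2 and Clic6 did not. Among the 10 microglial markers, C1qc and P2ry12 had this order as well, and the others and their summed level did not. The order was also that of mt-Cytb, the mitochondrially encoded cytochrome b of complex III, with 9668 and 21330 in WT and 9118, 30040 and 7441 in KIKO.

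**Figure D4:**
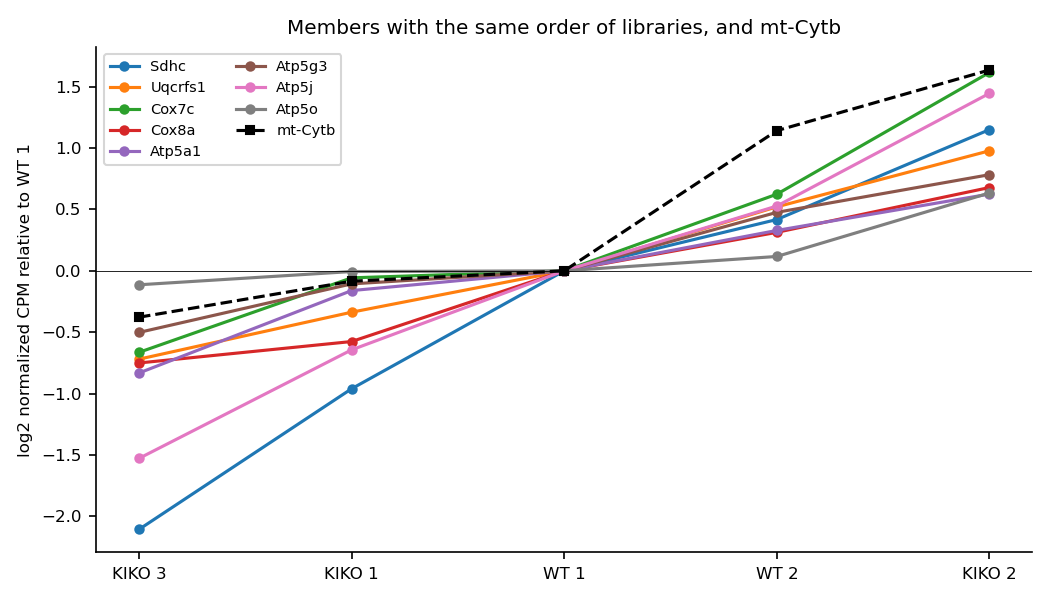
Log2 normalized CPM relative to WT 1 in each library for the 8 members that share one order of libraries, with mt-Cytb as a dashed line; libraries are placed along the axis in that order. Sdhc and Atp5j span the widest range, Atp5o the narrowest.

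Promoter sequence was examined because these members had their libraries in a common order. RefSeq on GRCm38.p6 held windows of 250 bases before and 50 bases after the start for 41 of the 54 members (44 windows). Stretches of 120 bases before the start and 25 bases from it are shown for 5 of the 8 members, read along the gene's strand. Atp5a1 and Sdhc are not shown, nor is Atp5j, whose start region overlaps Gabpa. Capitals mark the letters CCGGAAG, a core that GABP and other ETS factors bind, or the pattern of NRF1 (the letters GCGCA and GCGC with any single base between them), on either strand. The stretches lie on the minus strand, at chr19:7217592-7217736 for Cox8a, chr2:73911302-73911446 for Atp5g3, chr16:91931606-91931750 for Atp5o, chr13:86046771-86046915 for Cox7c and chr13:30545292-30545436 for Uqcrfs1.
Cox8a: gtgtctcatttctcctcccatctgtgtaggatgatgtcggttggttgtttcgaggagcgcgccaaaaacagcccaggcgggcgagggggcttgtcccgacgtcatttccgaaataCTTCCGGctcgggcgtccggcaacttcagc
Atp5g3: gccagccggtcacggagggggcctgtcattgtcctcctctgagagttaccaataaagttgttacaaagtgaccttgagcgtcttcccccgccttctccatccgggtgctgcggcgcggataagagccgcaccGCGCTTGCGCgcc
Atp5o: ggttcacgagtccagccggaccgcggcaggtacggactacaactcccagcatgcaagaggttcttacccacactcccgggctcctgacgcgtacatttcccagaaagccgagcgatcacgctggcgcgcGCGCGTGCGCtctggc
Cox7c: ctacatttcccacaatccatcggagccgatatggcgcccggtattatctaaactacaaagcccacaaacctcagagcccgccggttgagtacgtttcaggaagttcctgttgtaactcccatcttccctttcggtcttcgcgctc
Uqcrfs1: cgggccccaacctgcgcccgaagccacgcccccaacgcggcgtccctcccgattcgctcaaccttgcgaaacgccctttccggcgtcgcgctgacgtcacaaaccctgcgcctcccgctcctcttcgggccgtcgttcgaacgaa
The ETS letters stood in Cox8a, the NRF1 pattern in Atp5g3 and Atp5o, and neither in the stretches of Cox7c and Uqcrfs1, so these 5 members did not share one of the motifs within the stretches shown.

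Over the full windows of the members, CCGGAAG was found in 15 of 44 (34.1%), beside 16.7% of the windows of all genes tested and 8.86% of all 32851 windows. The NRF1 pattern was found in 12 (27.3%), beside 9.83% and 4.6%. Members with the ETS letters included Sdhb, Cox6b1, Cox6a1, Uqcrh, Atp5h and Atp5k, and Sdha held the NRF1 pattern at 3 places. AAGATGGCG, the letters of YY1, was found in 2 windows (4.55%, beside 3.01% and 1.4%). GGGCGGG, the letters of SP1, was found in 14 (31.8%, beside 47% and 25.6%), CCAAT in 23 (52.3%, beside 36.7% and 37.4%) and TATAAA in 4 (9.09%, beside 6.74% and 13.6%). Both strands were searched for each. A match is a description of the letters and no evidence of binding.

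Regulators of respiratory genes were measured as well. Of 10 tested, 1 passed the thresholds, beside 1.2% of all genes tested. It was Gabpa, a subunit of the ETS factor GABP, with 3.98 and 4.55 normalized CPM in WT and 9.46, 31.7 and 11.2 in KIKO. The WT values of Gabpa rest on only 4 and 6 counts, where 3 counts are 2.99 normalized CPM in WT 1 and 2.28 in WT 2. The log2 fold change of Gabpa was 2.01 (SE 0.87, unadjusted p = 0.0482, adjusted p = 1, edgeR's quasi-likelihood test with Benjamini-Hochberg adjustment), and without KIKO 2 it was 1.23 (SE 0.84) and not past the thresholds. Exons of Gabpa and Atp5j overlap on opposite strands by 397 bases, and the strand setting of the counting is not given in the sources used here, so reads of this stretch cannot be assigned with certainty. Ppargc1a, the coactivator of mitochondrial biogenesis, had 15.9 and 24.3 in WT and 39.4, 24.0 and 37.6 in KIKO, with a log2 fold change of 0.73 (SE 0.51). Without KIKO 2 it was past the thresholds, at 0.91 (SE 0.44, adjusted p = 0.605 by the same edgeR test), where 2.94% of all genes were higher.

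Of 33 listed assembly factors of complexes III to V, 26 were tested and 0 passed the thresholds, with 16 of positive and 10 of negative sign and a median log2 fold change of 0.10. Without KIKO 2, 24 were tested and 3 passed the unadjusted thresholds, beside 3.51% of all genes lower and 2.94% higher. Coa5 and Cox18, which act in the assembly of complex IV, had −0.94 and −1.77, with adjusted p of 0.550 and 0.534. Sco2, a copper chaperone of the same complex, had 1.79 (adjusted p = 0.588, edgeR with Benjamini-Hochberg adjustment) on 1 and 8 counts in WT and 18 and 12 in KIKO 1 and KIKO 3. Of the 6 mitochondrially encoded subunits of complexes III to V, only mt-Cytb and mt-Co1 had enough counts for a test. mt-Co1, the catalytic subunit of complex IV, had 756 and 1561 normalized CPM in WT and 858, 2030 and 1070 in KIKO, and its log2 fold change was 0.19 (SE 0.54). That of mt-Cytb was 0.00 (SE 0.78), and without KIKO 2 it was lower past the thresholds, at −0.91 (SE 0.35, adjusted p = 0.489, edgeR with Benjamini-Hochberg adjustment). mt-Co2, mt-Co3, mt-Atp6 and mt-Atp8 lay between 0 and 11.0 normalized CPM, against 7441 to 30040 for mt-Cytb. The handling of reads with several matches is not given in the sources used here. These low values are therefore uncertain as levels of expression, and their cause was not tested.

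Isoform families of complex IV were each dominated by 1 gene. Shares within a library do not depend on its scaling. Cox4i1 took between 94.9% and 100% of the Cox4i counts, Cox6a1 between 97.3% and 99% of the Cox6a counts, Cox7a2 between 94.3% and 98.5% of the Cox7a counts, and Cox8a between 92.3% and 100% of the Cox8 counts. Cox8b, an isoform of heart and skeletal muscle, was found with 12 counts in WT 1, 2 counts in KIKO 2 and 0 in the other libraries. Cox8c had 0 counts in every library, which allows up to 3.04 normalized CPM in the shallowest. Cox7b2 had 1.02 normalized CPM in KIKO 3 and 0 elsewhere.

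In the c ring, Atp5g3 took most counts and Atp5g2 was nearly undetected. Of the 75-base sequences of Atp5g2, 35.8% also occur in another gene, against 8.07% for Atp5g1 and 0% for Atp5g3. How such reads were counted is not given in the sources used here, so the low level of Atp5g2 is uncertain. Atp5g3 (chr2:73908447-73911326, minus strand) had 201 and 279.9 normalized CPM in WT and 187, 346 and 142 in KIKO, and Atp5g1 (chr11:96068852-96075670, minus strand) had 52.8 and 49.3 in WT and 60.7, 21.6 and 63.9 in KIKO. The share of Atp5g1 was 20.8% (exact 95% binomial interval 16 to 26.3) in WT 1 and 14.9% (11.7 to 18.6) in WT 2. In KIKO mice it was 24.5% (19.9 to 29.7), 5.81% (3.89 to 8.29) and 30.7% (24.5 to 37.5). KIKO 2 was thus the lowest library and the other KIKO libraries were the highest. The group means were 17.8% in WT and 20.4% in KIKO (exact permutation test, two-sided, p = 0.8), and the smallest p that 2 against 3 libraries allow is 0.1. Intervals cover counting error only.

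Cox6b was the other family with more than 1 tested gene, and its share was added after the values were seen. Cox6b2 took 7.58% (exact 95% interval 3.69 to 13.5) and 5.08% (2.35 to 9.43) of the Cox6b counts in WT. In KIKO it took 8.7% (4.25 to 15.4), 19.9% (14.2 to 26.7) and 6.9% (3.02 to 13.1). Only KIKO 2 stood apart, and the group means of 6.33% and 11.8% gave p = 0.5 in the two-sided exact permutation test.

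**Figure D5:**
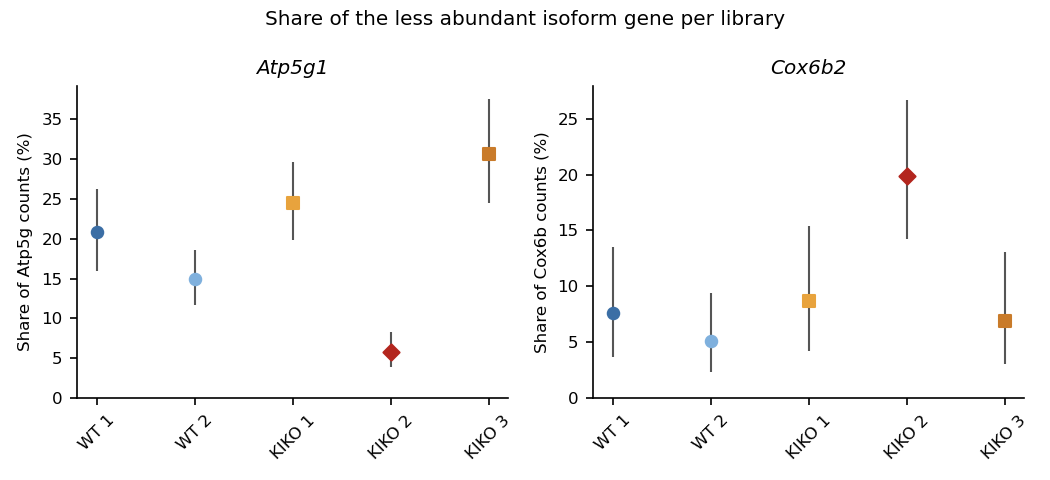
Share of Atp5g1 in the Atp5g counts (left) and of Cox6b2 in the Cox6b counts (right), in percent, for each library, with exact 95% binomial intervals. KIKO 2 has the lowest Atp5g1 share, 5.81%, and the highest Cox6b2 share, 19.9%.

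Levels were also compared per kilobase of exon, a scale that corrects for gene length. Medians over tested members were 11.4 normalized CPM per kb in complex II, 49.5 in complex III, 92.1 in complex IV and 51.6 in complex V. The tested set of complex II includes the assembly factors Sdhaf1 to Sdhaf4, at 1.1 to 11.4. Those of complexes III to V were listed apart, so the medians cover unlike sets. The highest were Atp5k (298), Cox6a1 (268), Cox8a (237) and Cox7c (207), and in complex II Sdhb (38.2) and Sdha (36.5) stood above Sdhc (18.5). The ranges overlapped between all complexes, from 1.1 to 38.2 in complex II, 21 to 143 in complex III, 10.7 to 268 in complex IV and 10.1 to 298 in complex V. Levels per kb assume that reads cover the whole transcript. The labels name a stranded kit whereas the study's text names a digital mRNA service, so this scale is uncertain.

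Among the 4 libraries other than KIKO 2, the ratio of the highest to the lowest level had a median of 1.6 over the members and of 1.8 over all genes. It exceeded 2 in 13 of 44 members and was largest in Sdhc, at 5.12. More than 5% of the 75-base sequences of 17 members also occurred in another gene. Among them were Atp5g2 (35.8%), Atp5o (34.2%), Cycs (23.9%), Cox7c (19.6%), Uqcrb (16.7%) and Uqcrc2 (16.5%). How such reads were counted is not given in the sources used here. Exons of 14 members share positions with another listed gene.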

How the data were processed

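Bulk RNA sequencing libraries of the cerebellum, 2 WT and 3 KIKO, were analysed. After trimming (Trimmomatic) and alignment to mm10 (HISAT2), the authors counted reads per gene by featureCounts and deposited the raw counts. They also deposited log2 values of DESeq2-normalized counts, used here for an alternative only. The annotation, the strand setting and the handling of reads with several matches are not given in the sources used here. Columns were matched to samples by name. A further 2 per-sample columns carry names with butyrate, match no sample and were not used. Nothing in the labels says how mice and libraries relate, so p-values measure the spread between these libraries, which may be in part technical.

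GENCODE M21 (GRCm38) gave names for 31011 of the 31053 identifiers (99.9%). Of 8 pseudogenes whose symbols fit the rule, 0 were in the table. The fit used edgeR 4.0.16 (R 4.3.3): filterByExpr (minimum count 10, minimum total 15) kept 10889 genes with between 98.6% and 98.94% of each library's counts, TMM scaled the libraries, and KIKO was compared with WT by the two-sided quasi-likelihood test with Benjamini-Hochberg adjustment over all genes tested. Normalized CPM are counts scaled by the TMM-adjusted size of each library. Standard errors (SE) were calculated back from this test, as the size of the log2 fold change over the square root of its F statistic. Depth limits the precision, since 3 counts are between 2.28 and 3.04 normalized CPM, which covers counting error only. The fit was also run on simulated data, with the same dispersion for every gene and no outlying library. That run therefore does not bear on the effect of KIKO 2. Alternatives used DESeq2 1.42.0, limma 3.58.1, other scaling and filters, the replicate number as a block and leaving out each library; limma voom with sample quality weights was added after seeing the data.

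Members and gene lists were chosen with earlier results of these data known. Genes named were members past the thresholds, the 3 members with the highest mean normalized CPM and the extreme members of each complex, carriers of redox cofactors, isoform families, the inhibitor Atpif1, mitochondrially encoded subunits and members of the other lists past the thresholds. Uqcr10, Uqcrc1, Uqcrc2, Uqcrb, Cox4i1, Atp5j, Atp5k, Usmg5 and others singled out for overlap, order or level were chosen after their values were seen. The targeted gene is not reported here. Promoter and coding sequences came from RefSeq on GRCm38.p6 and GENCODE M21.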

Additional observations from a re-analysis of the deposited data

How the results depend on the processing

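The count of members past the thresholds, 0 in either direction, stayed at 0 with DESeq2's Wald test, with limma on the deposited log2 values, with RLE factors or the plain library size, with a minimum of 10 counts in every library and without any library other than KIKO 2. With no filter beyond 1 count it was 1 higher (Atp5f1), and with sample quality weights (limma voom), which gave KIKO 2 a weight of 0.163, it was 3 lower (Sdhc, Cox8a and Atp5j). Leaving out single libraries gave between 0 and 4 lower members, the 4 being without KIKO 2. At an adjusted p under 0.05, 0 members were called under every alternative run. The log2 fold change of Atp5j, 0.02, turned to −1.17 with quality weights and lay between −1.29 (without KIKO 2) and 0.46 with single libraries left out. That of mt-Cytb, 0.00, lay between −0.91 (without KIKO 2) and 0.66. The cause was not tested.

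Over all genes, no filter gave 256 higher and 127 lower genes and 1 at an adjusted p under 0.05, and quality weights gave 203 and 316. Leaving out single libraries gave between 41 and 305 higher, between 15 and 364 lower and between 0 and 5 genes at an adjusted p under 0.05, with the highest counts without KIKO 2 and the lowest without WT 1 (15 lower also without WT 2). The median log2 fold change of complex III was between 0.06 and 0.53 in these fits, 0.53 being without WT 2, and that of complex IV between −0.27 and 0.33. That of complex II was between −0.28 and 0.10 in these fits. It was 0.01 with at least 10 counts in every library and −0.41 with limma on the deposited log2 values. The median of all genes, 0.02, was 0.07 with library size alone, −0.04 with limma on the deposited log2 values, −0.01 with quality weights and between −0.01 and 0.07 without single libraries.

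With the replicate number as a block, 1 member was higher (Atp5f1, 1.25), 109 of all genes were higher and 162 lower, and the median of all genes was −0.04. The labels share only a number, and nothing else pairs the mice. Deviations from the group mean correlated with r = 0.18 for WT 1 and KIKO 1, 0.239 for WT 2 and KIKO 2 and 0.218 for WT 1 and KIKO 3. With 2 WT libraries, the deviations of WT 1 mirror those of WT 2. A KIKO library that correlates negatively with WT 1 must therefore correlate positively with WT 2, so these values cannot show pairing.

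The depth, between 1013107 and 1351339 counts per library, put members such as Sdhd, Atp5g2, Cox4i2 and Cox8b below the filter, and for those tested the median standard error of 0.44 limits which changes can be seen.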
